A study of Mus musculus with 8 samples.

Results

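Tumour cells can carry surface and secreted proteins that restrain T cells, natural killer cells and macrophages. The transcripts of 10 genes for such immune checkpoint ligands were examined in 2 mouse lung cell lines: Cd274, Pdcd1lg2, Cd276, Vtcn1, Cd80, Cd86, Cd47, Pvr, Cd24a and Lgals9. They were taken by gene symbol from a deposited table of raw counts for 43346 genes, and each symbol matched 1 row. The lines were LLC1, from a Lewis lung carcinoma of a C57BL mouse, and MLE12, a lung epithelial line made from a mouse lung tumour driven by SV40 large T antigen, with the surfactant protein C promoter directing the transgene. MLE12 is therefore not normal lung tissue, and each line is a single model. Both were bought from the same cell bank per the labels, labelled as untreated, and harvested at about 80% confluence. There were 4 libraries of each line. The labels leave out whether each is its own culture, so a p-value here measures only how these samples spread, which may be technical. RNA of whole cultures was measured, not protein at the cell surface, and fewer cells with a transcript cannot be told apart from less of it per cell.

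The ligands act through receptors on immune cells. PD-L1 (Cd274) and PD-L2 (Pdcd1lg2) bind PD-1 on T cells and damp their activation, and interferon gamma is the best known inducer of Cd274 through JAK kinases and IRF1. CD80 and CD86, typical of antigen-presenting cells, bind both CD28, which activates T cells, and CTLA-4, which restrains them. CD47 and CD24 tell macrophages not to engulf the cell, PVR binds TIGIT, CD96 and the activating receptor CD226, and galectin-9 (Lgals9) is a ligand of TIM-3. B7-H3 (Cd276) and B7-H4 (Vtcn1) belong to the same family as PD-L1, and their receptors are not settled.

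The LLC1 libraries held 46.8 to 55.3 M counts, the MLE12 libraries 48.6 to 76.7 M. Levels are CPM, counts relative to library size after TMM scaling, given as mean ± SD (n = 4 per line), and levels of different genes are compared only as RPKM, the CPM per kilobase of the gene length in the table. A log2 fold change, given with its SE, sets LLC1 over MLE12, and p-values, by edgeR's quasi-likelihood method, carry a Benjamini-Hochberg adjustment over all 18546 genes tested. Of 8 lung epithelial and line markers, 5 were called toward MLE12 and 3 toward LLC1, beside 40.9% and 40.7% of all tested genes. The lung genes Nkx2-1 (147 ± 6.39 CPM) and Sftpc (23.6 ± 1.59 CPM) were found in MLE12, and LLC1 had 0.663 ± 0.109 and 0.154 ± 0.0549 CPM of them. The epithelial gene Cdh1 was also higher in MLE12, at 0.553 ± 0.0474 CPM in LLC1 against 154 ± 3.04 CPM. So were Epcam (0.0235 ± 0.0282 and 3.36 ± 0.177 CPM) and Sftpb (0.312 ± 0.0255 and 32.4 ± 1.07 CPM). The epithelial keratins went the other way. Krt18 was at 293 ± 9.04 CPM in LLC1 against 0.930 ± 0.315 CPM in MLE12, and Krt8 at 208 ± 7.32 and 106 ± 2.77 CPM. Vim, the mesenchymal filament gene, was abundant in both lines, at 3958 ± 154 CPM in LLC1 against 943 ± 21.2 CPM in MLE12.

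The ligands divided into 3 kinds. Cd47, Cd276 and Pvr were abundant in both lines and differed by less than 1.5-fold. Cd24a and Lgals9 were abundant in MLE12 and far lower in LLC1. Cd274 and Cd80 were low in both lines, and Pdcd1lg2, Cd86 and Vtcn1 had at most 2 counts in any library. Of the 10 genes, 7 had enough counts to be tested and reached the filter in all libraries of both lines, and 3 did not. All 7 had an adjusted p under 0.05, with 3 on the LLC1 side and 4 on the MLE12 side. Of all tested genes 81.6% were called so, 40.7% toward LLC1 and 40.9% toward MLE12, so a call by itself says little about the ligands. The libraries of the lines did not overlap for 6 of the 7, beside 76.3% of all tested genes. LLC1 lay above for 2 of them (37.7% of tested genes) and MLE12 for 4 (38.7%). Against a minimum fold of 2, tested with edgeR's glmTreat, 2 of the 7 were called, Cd24a and Lgals9, both higher in MLE12. That test called 33.7% of all tested genes, 16.7% toward LLC1 and 16.9% toward MLE12. The median log2 fold change of the 7 was -0.30, beside 0.02 for all tested genes.

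**Figure D1:**
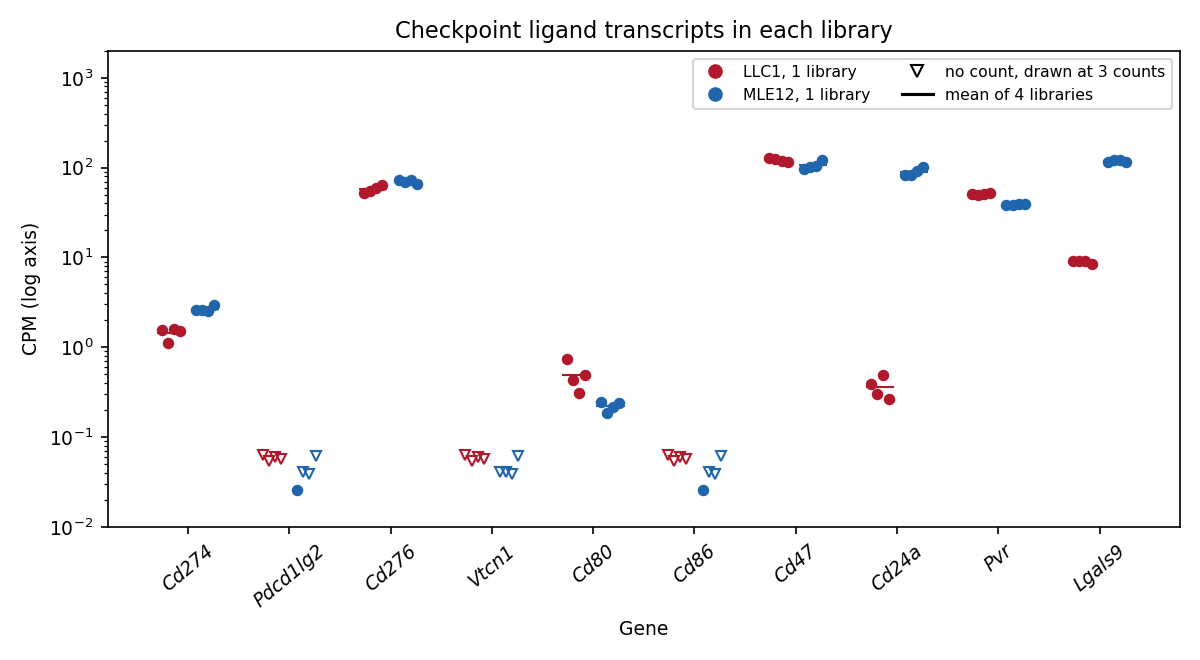
CPM of the 10 ligand transcripts in each library on a log axis, with LLC1 in red and MLE12 in blue; horizontal lines are means of 4 libraries, and open triangles stand for libraries without a count, drawn at the level of 3 counts, which lies above the point of a library with 2 counts. Cd24a and Lgals9 show a wide gap between the lines, Cd47, Cd276 and Pvr sit between 38.2 and 129 CPM in every library, and Pdcd1lg2, Vtcn1 and Cd86 are at or near 0.

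The PD-1 ligands were scarce in both lines. Cd274 (ENSMUSG00000016496, chromosome 19, 29367455 to 29388095, plus strand, mm10) stood at 1.57, 1.12, 1.59 and 1.52 CPM in the LLC1 libraries and at 2.57, 2.62, 2.52 and 2.92 CPM in the MLE12 libraries. Every MLE12 library was above every LLC1 library. The means were 1.45 ± 0.222 and 2.66 ± 0.177 CPM, a level 1.83-fold higher in MLE12 (95% interval 1.46 to 2.30) or -0.87 ± 0.16 as a log2 fold change (adjusted p = 4.6e-05 by edgeR), and the difference was not past 2-fold. These levels rested on 60 to 80 counts per library in LLC1 and 146 to 199 in MLE12. Among all tested genes, the RPKM of Cd274 lay at percentile 18.5 in LLC1 and 25.3 in MLE12, so the PD-L1 transcript was present but low in both.

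Pdcd1lg2 (ENSMUSG00000016498), 22.8 kb further along chromosome 19 (29410919 to 29471157), had no count in the 4 LLC1 libraries. In MLE12 it had 2 counts in 1 library and none in the other 3. Counts of 0 over the LLC1 libraries allow up to 0.0147 CPM, or 0.00892 RPKM, for this gene (3 counts over the group, for counting error only). If both reads of a pair were counted, 2 counts can be 1 pair. This limit and those below for Vtcn1 and Cd86 would then be too low. No fold was computed, because both lines were at or under the floor of 3 counts.

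The tested genes around the pair went both ways. Plgrkt, which encodes a plasminogen receptor, lies 0.065 kb before Cd274 on the other strand, so the genes run away from each other. Like Cd274, it was higher in MLE12, at 22.4 ± 1.68 CPM in LLC1 against 37.6 ± 2.42 CPM in MLE12 (-0.74 ± 0.06, adjusted p = 1.9e-09 by edgeR). Jak2, the kinase of the interferon gamma receptor, and Ric1 on the other side of the pair were higher in LLC1 (0.48 ± 0.06 and 0.40 ± 0.05), as was Ermp1 (1.08 ± 0.04). The insulin-like gene Insl6, between Jak2 and Plgrkt, was at 1.84 ± 0.315 and 1.71 ± 0.288 CPM and was not called (0.11 ± 0.18, adjusted p = 0.576). A930007I19Rik, the nearest tested model after Pdcd1lg2, stood at 0.684 ± 0.119 and 0.366 ± 0.137 CPM (0.94 ± 0.31).

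Promoter windows of the 2 neighbours are shown because they differ in base composition while the genes differ in being detected. The windows run from 250 bases before to 50 bases after the start in RefSeq (GRCm38.p6), read 5′ to 3′ on the gene's strand, with CG dinucleotides in capitals, the Cd274 window at chr19:29367188-29367487 and the Pdcd1lg2 window at chr19:29410669-29410968.
Cd274: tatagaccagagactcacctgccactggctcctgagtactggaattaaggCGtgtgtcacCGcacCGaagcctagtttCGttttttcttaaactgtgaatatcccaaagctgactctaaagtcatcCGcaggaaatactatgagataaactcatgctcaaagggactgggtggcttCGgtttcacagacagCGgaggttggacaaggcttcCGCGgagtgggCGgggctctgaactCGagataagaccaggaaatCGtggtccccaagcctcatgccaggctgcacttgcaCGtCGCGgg
Pdcd1lg2: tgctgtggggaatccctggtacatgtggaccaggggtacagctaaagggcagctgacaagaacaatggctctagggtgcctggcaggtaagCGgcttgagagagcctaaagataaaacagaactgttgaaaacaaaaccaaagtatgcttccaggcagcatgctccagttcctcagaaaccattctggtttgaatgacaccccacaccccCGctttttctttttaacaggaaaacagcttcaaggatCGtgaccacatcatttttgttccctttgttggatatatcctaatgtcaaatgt
The Cd274 window holds 15 CG dinucleotides and the Pdcd1lg2 window 3, beside a median of 7 over 32851 RefSeq promoter windows.

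The other B7 family pair, Cd276 and Vtcn1, showed a wider contrast. Cd276 (ENSMUSG00000035914, chromosome 9, 58524300 to 58555132, minus strand) stood at 51.8, 55.2, 59.1 and 63.3 CPM in LLC1 and at 73.2, 68.8, 73.4 and 66.1 CPM in MLE12. The lowest MLE12 library was above the highest LLC1 library by a small margin. The means were 57.3 ± 4.94 and 70.4 ± 3.53 CPM, 1.23-fold higher in MLE12 (95% interval 1.13 to 1.33; log2 fold change -0.30 ± 0.06, adjusted p = 1.1e-04 by edgeR). Cd276 overlaps the model RP24-78F21.3, which had 391 counts over the LLC1 libraries and 681 over the MLE12 libraries, and adding them gave -0.29. The B7-H3 transcript was thus among the more abundant messages of both lines, at percentile 79.3 of tested genes by RPKM in LLC1 and 82.5 in MLE12. Vtcn1 (ENSMUSG00000051076, chromosome 3, 100825459 to 100895679, plus strand) had no count in any of the 8 libraries, which allows up to 0.0106 RPKM in LLC1 and 0.00800 RPKM in MLE12 over the 4 libraries of a line.

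Their promoter windows, with CG dinucleotides in capitals as before, are shown for an abundant and an undetected member of the family, Cd276 at chr9:58554984-58555283 on the minus strand and Vtcn1 at chr3:100825209-100825508.
Cd276: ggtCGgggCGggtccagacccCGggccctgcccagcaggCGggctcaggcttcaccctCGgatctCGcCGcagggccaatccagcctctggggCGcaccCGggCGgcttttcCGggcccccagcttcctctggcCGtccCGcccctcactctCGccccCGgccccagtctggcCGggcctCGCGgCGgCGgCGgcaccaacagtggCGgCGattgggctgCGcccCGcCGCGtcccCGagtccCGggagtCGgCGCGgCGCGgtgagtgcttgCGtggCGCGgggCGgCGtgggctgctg
Vtcn1: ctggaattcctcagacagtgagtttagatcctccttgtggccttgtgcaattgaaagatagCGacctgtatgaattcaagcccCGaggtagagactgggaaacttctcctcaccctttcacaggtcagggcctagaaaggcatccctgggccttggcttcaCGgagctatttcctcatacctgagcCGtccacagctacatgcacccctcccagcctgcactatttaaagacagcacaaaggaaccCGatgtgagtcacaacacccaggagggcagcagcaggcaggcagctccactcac
The Cd276 window holds 39 CG dinucleotides, a number reached by 4.45% of all windows, and the Vtcn1 window holds 5. Windows of 7 of the 10 ligands were used here, since the set of windows held none for Cd86, Cd24a and Pvr. The abundant Pvr, and Cd24a with the widest difference, are therefore not covered. Cd47 has 35 CG dinucleotides in its first window, Lgals9 has 4 and Cd80 has 3. Across the 7, the abundant and evenly expressed Cd47 and Cd276 had the CG-dense windows, and the low but detected Cd274 had a middle number. The CG-poor windows belonged to genes of unlike level: Pdcd1lg2 and Vtcn1, at or near 0, Cd80, low but detected, and Lgals9, high in MLE12. Among all genes of the table with a window, the median number of CG dinucleotides was 20 for 11111 tested genes. It was 3 for 7037 genes with too few counts to be tested. Of the tested genes 12.5% had 5 or fewer, and of the untested 67.1%.

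**Figure D2:**
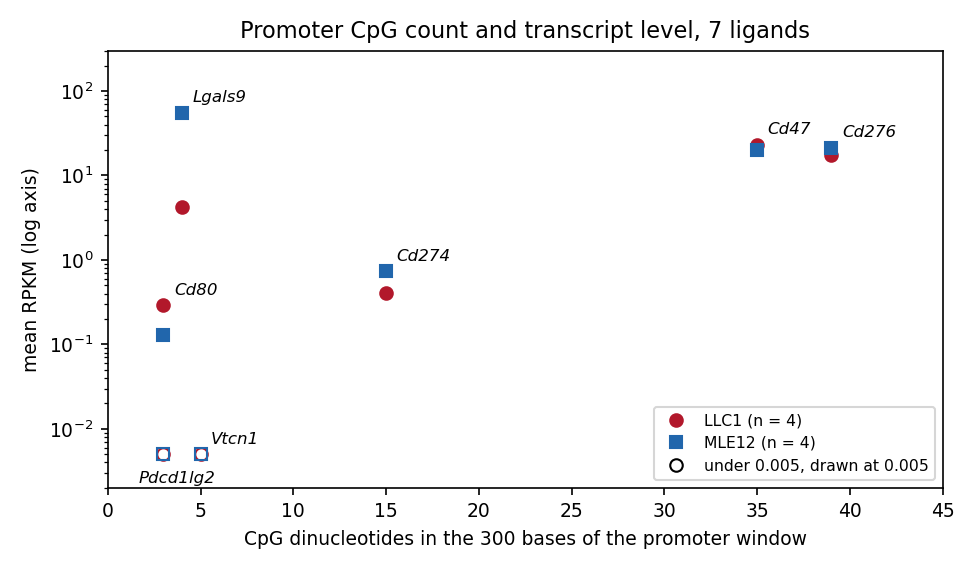
Number of CG dinucleotides in the 300 bases of each promoter window against the mean RPKM of the gene on a log axis for the 7 ligands with a window, LLC1 as red circles and MLE12 as blue squares (n = 4 per line); open symbols are levels under 0.005, drawn at 0.005. Cd47 and Cd276 sit at the right with levels near 20 RPKM in both lines, Pdcd1lg2, Vtcn1 and, somewhat higher, Cd80 at the lower left, and Lgals9 at the upper left with levels far apart between the lines.

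Cd80 and Cd86, the ligands of CD28 and CTLA-4, were near the limit of detection. Cd80 (ENSMUSG00000075122, chromosome 16, 38458933 to 38486933) stood at 0.739, 0.430, 0.310 and 0.494 CPM in LLC1 and at 0.246, 0.186, 0.216 and 0.240 CPM in MLE12. All LLC1 libraries were above all MLE12 libraries, with a wide spread within LLC1 (coefficient of variation 36.7%). The mean was 0.493 ± 0.181 CPM in LLC1 against 0.222 ± 0.0274 CPM in MLE12, 2.21-fold higher in LLC1 (95% interval 1.35 to 3.61; log2 fold change 1.14 ± 0.34, adjusted p = 0.0045 by edgeR). It did not pass the test against a 2-fold difference (adjusted p = 0.371), and it rested on 12 to 32 counts per library. Cd86 (ENSMUSG00000022901, chromosome 16, 36603869 to 36666081) had no count in LLC1 and 2 counts in 1 MLE12 library. Over the 4 LLC1 libraries a count of 0 allows up to 0.00401 RPKM of Cd86.

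Markers of the antigen-presenting cells that normally carry Cd80 and Cd86 were mostly missing too. Of 20 leukocyte markers, 14 had too few counts to be tested, and 4 of them (Emr1, Ncr1, Nkg7 and Tyrobp) had no count in any library. Ptprc, which marks all white blood cells, had no count in LLC1 and 2 counts in MLE12. The summed level of the list was 27.0 to 28.6 CPM in LLC1 libraries and 16.8 to 19.4 CPM in MLE12 libraries, most of it from Itgax (7.34 CPM in LLC1, 0.0291 CPM in MLE12), Csf1r (10.5 and 12.8 CPM) and Cd68 (8.36 and 2.17 CPM). The list's sum, like Cd80, was higher in LLC1, and its part in the Cd80 difference was not tested. Of the 6 tested markers 2 were called toward LLC1 and 2 to MLE12 with 2 not called, with a median log2 fold change of 0.04. Of all tested genes 81.6% were called.

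Cd47 was the most abundant ligand of LLC1 per kilobase and Cd24a, its counterpart in restraining phagocytosis, was almost missing there. Cd47 (ENSMUSG00000055447, chromosome 16, 49855618 to 49915010, plus strand) stood at 129, 124, 117 and 116 CPM in LLC1 and at 96.9, 102, 104 and 121 CPM in MLE12. The lines overlapped, since 1 MLE12 library lay above 2 of the LLC1 libraries. The means of 122 ± 6.15 and 106 ± 10.7 CPM differed by 1.15-fold (95% interval 1.05 to 1.26; log2 fold change 0.20 ± 0.06, adjusted p = 0.0055 by edgeR). With library totals in place of TMM factors the difference was 0.10 and was no longer called (adjusted p = 0.112), so the call on this small difference rests on how the libraries are scaled. The table also holds AC107830.1, a gene model inside the last exon of Cd47, with 6158 counts over the LLC1 libraries and 7984 over the MLE12 libraries, beside 24035 and 29458 for Cd47. With the counts of such overlapping models added, Cd47 had a log2 fold change of 0.18 (adjusted p = 0.0322).

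Cd24a (ENSMUSG00000047139, chromosome 10, 43579169 to 43584262, plus strand), which encodes a small glycosylated surface protein recognised by a Siglec receptor, showed the widest difference among the ligands. It stood at 0.393, 0.299, 0.496 and 0.266 CPM in LLC1 and at 83.8, 83.7, 91.0 and 102 CPM in MLE12. The lines were far apart, at 0.364 ± 0.103 and 90.2 ± 8.77 CPM, a 249-fold higher level in MLE12 (95% interval 210.0 to 296; log2 fold change -7.96 ± 0.12, adjusted p = 2.6e-20 by edgeR). Its absolute log2 fold change lay at percentile 97.5 of all tested genes. The LLC1 level rested on 71 counts over 4 libraries and was 0.403% of that in MLE12. Among 4759 genes with at least 50 CPM in MLE12, the lowest such share was 0.238% and 31 genes had a lower share than Cd24a, so the LLC1 level was among the lowest shares of abundant MLE12 genes. Whether those counts were reads of the other line was not tested. Relative to Cd47 in the same library, per kilobase, Cd24a was at 0.00870 ± 0.00257 in LLC1 and at 2.48 ± 0.0744 in MLE12.

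Partners of these ligands were examined next. Sirpa, the receptor of CD47, is typical of myeloid cells and was at 0.0773 ± 0.0265 CPM in LLC1 against 19.2 ± 1.16 CPM in MLE12 (-7.95 ± 0.15, adjusted p = 1.4e-19 by edgeR). Thbs1, the secreted thrombospondin that also binds CD47, was at 3.56 ± 0.542 CPM in LLC1 against 146 ± 12.3 CPM in MLE12 (-5.36 ± 0.09). Siglecg, the mouse Siglec that binds CD24, was under 0.2 CPM in both lines and was not called (-0.37 ± 0.50, adjusted p = 0.503). Qpctl and Qpct encode glutaminyl cyclases, and the former modifies the end of CD47 that SIRPA recognises. Both were higher in MLE12, by -1.51 ± 0.07 and -2.69 ± 0.07 on the log2 scale.

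Pvr and Lgals9 moved in opposite directions. Pvr (ENSMUSG00000040511, chromosome 7, 19903578 to 19921160, minus strand) stood at 50.6, 49.0, 50.3 and 52.1 CPM in LLC1 and at 38.5, 38.2, 39.0 and 39.1 CPM in MLE12. The libraries of each line lay close together and the lines did not overlap. The means of 50.5 ± 1.28 and 38.7 ± 0.391 CPM differed by 1.3-fold (95% interval 1.22 to 1.39; log2 fold change 0.38 ± 0.04, adjusted p = 1.5e-07 by edgeR). Pvr overlaps the models Gm16184 (356 counts over the LLC1 libraries, 310 over the MLE12 libraries) and Gm16251 (33 and 54), and with their counts added its log2 fold change was 0.39. Lgals9 (ENSMUSG00000001123, chromosome 11, 78962974 to 78984946, minus strand), a galectin that binds sugars on cell surfaces, stood at 9.13, 9.07, 9.13 and 8.41 CPM in LLC1. In MLE12 its libraries were at 117, 120.5, 122 and 116 CPM, all far above LLC1. The means of 8.93 ± 0.352 and 119 ± 2.95 CPM gave a 13.3-fold higher level in MLE12 (95% interval 12.4 to 14.3; log2 fold change -3.74 ± 0.05, adjusted p = 8.2e-22 by edgeR). Lgals9 was the ligand with the highest mean RPKM in MLE12, at percentile 94.4 of tested genes, and lay near the middle in LLC1 at percentile 48.8.

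The Lgals9 promoter window (RefSeq, GRCm38.p6, chr11:78984875-78985174, minus strand) is shown because it alone among the 7 windows held a match to the core of the interferon-stimulated response element, which is GAAA followed after any 2 bases by GAAA, searched on both strands and given here in capitals.
Lgals9: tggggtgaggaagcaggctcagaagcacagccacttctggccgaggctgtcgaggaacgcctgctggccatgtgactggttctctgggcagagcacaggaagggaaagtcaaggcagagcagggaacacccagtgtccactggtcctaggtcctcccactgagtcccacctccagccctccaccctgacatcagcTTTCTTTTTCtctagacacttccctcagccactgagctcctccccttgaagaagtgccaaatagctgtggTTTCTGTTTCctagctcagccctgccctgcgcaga
It held 2 matches, at bases 196 to 205 and 266 to 275 of the window, both on the reverse strand. Of 32851 promoter windows, 3.44% held at least 1 match. The E-box CACGTG (7.15% of windows), searched on both strands, had no match in any of the 7, and a match or its absence in these letters does not show binding.

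Of the receptors of PVR and galectin-9, which belong to immune cells, Tigit and Havcr2 had enough counts to be tested. Tigit had 561 counts over the LLC1 libraries and 57 over the MLE12 libraries, 2.83 ± 0.236 and 0.208 ± 0.0981 CPM (3.78 ± 0.26, adjusted p = 7.7e-11 by edgeR). Havcr2, which encodes TIM-3, was at 1.22 ± 0.243 CPM in LLC1 against 0.0409 ± 0.0176 CPM in MLE12 (4.88 ± 0.37). So Tigit was higher in LLC1, as was Pvr by a small amount (0.38 ± 0.04). Havcr2 was higher in LLC1 while Lgals9, the gene of its ligand, was higher in MLE12. Cd226 had no count, and Cd96 had 2 counts in LLC1 and none in MLE12. Among the receptors of the other ligands, Pdcd1 and Ctla4 had no count in any library and Cd28 was low, at 0.182 ± 0.0937 CPM in LLC1 against 0.585 ± 0.100 CPM in MLE12 (-1.69 ± 0.36). Of the 9 receptors, 5 were tested, with 2 on the LLC1 side, 2 on the MLE12 side and 1 not called. Of all tested genes 81.6% were called.

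**Figure D3:**
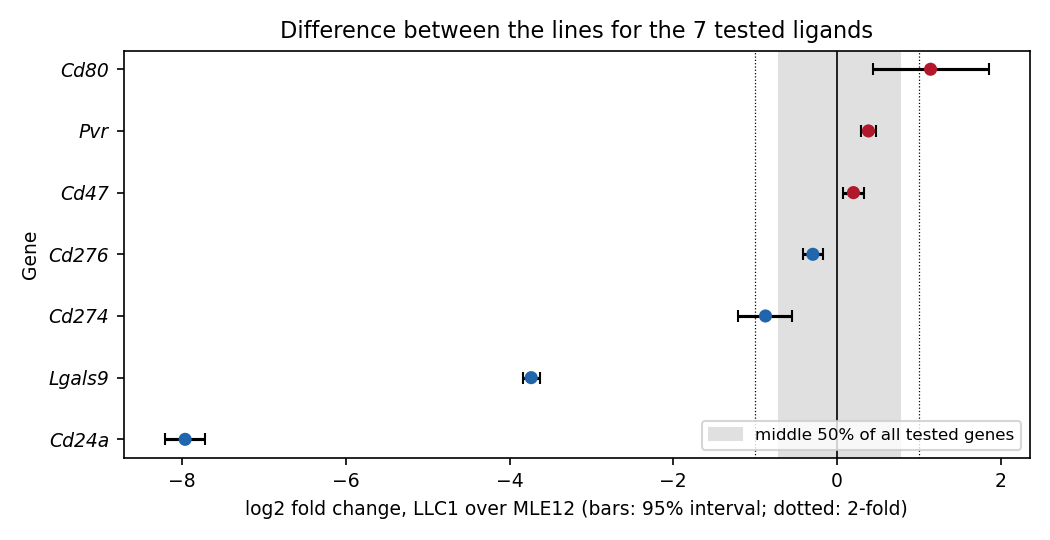
Log2 fold change, LLC1 over MLE12, of the 7 tested ligands with 95% intervals; red is higher in LLC1, blue is higher in MLE12, dotted lines mark 2-fold, and the grey band holds the middle 50% of all 18546 tested genes (-0.71 to 0.77). Cd24a and Lgals9 lie far to the left, and Cd276, Cd47 and Pvr lie within the band.

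The order of the ligands by RPKM differed between the lines. In LLC1 it ran Cd47 (23.1 ± 1.17 RPKM), Cd276 (17.4 ± 1.5), Pvr (9.34 ± 0.236) and Lgals9 (4.18 ± 0.165), with no overlap between neighbours. Then came Cd274 (0.401 ± 0.0612), Cd80 (0.290 ± 0.106) and Cd24a (0.200 ± 0.0569), whose libraries overlapped from one to the next. In MLE12 Lgals9 (55.7 ± 1.38 RPKM) and Cd24a (49.8 ± 4.84) led and overlapped, and Cd276 (21.3 ± 1.07) and Cd47 (20.1 ± 2.02) followed and overlapped. Pvr (7.16 ± 0.0722), Cd274 (0.734 ± 0.0490) and Cd80 (0.130 ± 0.0161) came next, each apart from its neighbours. Of the summed RPKM of the 10 ligands, Cd47 made up 42.1% in LLC1 and 13.0% in MLE12. Lgals9 and Cd24a together made the difference in makeup, with 7.62% and 0.365% in LLC1 and 35.9% and 32.1% in MLE12. The lengths in the table were shorter than the merged exons of GENCODE M21 for 7 of the ligands, and with the latter Cd80 (0.133 RPKM) was below Cd24a (0.141 RPKM) in LLC1. In MLE12 Cd24a was then at 34.97 RPKM, with every library below those of Lgals9 (55.7 RPKM), so their overlap ended. These values divide the same counts by the longer length. Reads in the added bases were not counted anew, so the order under recounted GENCODE genes was not tested.

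Genes whose level per kilobase was closest to that of a ligand over the 8 libraries were sought among 13850 named genes, as a description. The distance of log2 RPKM was used. It compares levels, which depend on the gene length taken, and does not measure whether genes vary together. For Cd24a the nearest was Nkx2-1, the lung transcription factor gene (0.233 RPKM in LLC1 and 51.6 RPKM in MLE12), then Ndnf (0.158 and 45.4 RPKM). For Lgals9 they were Snx18 (4.65 and 52.1 RPKM) and Fads3 (4.69 and 68.1 RPKM). The nearest to Cd47 were Actr10 and Rpf2, to Cd276 Rabl6 and Nr1h2, and to Pvr Gorasp1 and Foxo3, all with log2 fold changes from -0.35 to 0.38.

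Other ligands that signal to lymphocytes went both ways. Of 25 listed, 18 were tested, and 9 were called toward LLC1, 8 toward MLE12 and 1 was not called. Of all tested genes, 40.7% were called toward LLC1 and 40.9% toward MLE12. The list's median log2 fold change was 0.43. Some nectins share receptors with PVR. Pvrl2, the closest of them to PVR in its receptors, was at 9.22 ± 0.742 CPM in LLC1 against 52.1 ± 2.96 CPM in MLE12 (-2.5 ± 0.07), and Pvrl3 was higher in MLE12 too (-2.31 ± 0.05), whereas Pvrl1 was higher in LLC1 (0.83 ± 0.07). So Pvr and Pvrl2 differed between the lines in opposite directions. Rgmb, a partner of PD-L2, was at 64.5 ± 0.739 CPM in LLC1 against 6.65 ± 1.12 CPM in MLE12 (3.27 ± 0.08). The galectin Lgals1 had the most reads per kilobase of the list in both lines, with 2092 RPKM in LLC1 and 303 RPKM in MLE12 (2.79 ± 0.05), followed by Lgals3 (140 and 93.3 RPKM). H2-T23, which encodes the Qa-1 molecule seen by NKG2A, was higher in LLC1 (1.72 ± 0.10), and its reads may be shared with similar class I genes. The adhesion ligand Icam1 was at 0.0605 ± 0.0261 CPM in LLC1 against 20.7 ± 1.08 CPM in MLE12 (-8.37 ± 0.16). Outside the naming rule, and chosen after their values were seen, 4632428N05Rik, which encodes the checkpoint ligand VISTA, was at 4.53 ± 0.303 CPM in LLC1 against 0.0319 ± 0.0552 CPM in MLE12 (6.92 ± 0.39). Icosl, the ligand of ICOS, also chosen so, was at 4.74 ± 0.457 and 0.328 ± 0.0639 CPM (3.84 ± 0.18).

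Of 14 interferon gamma pathway genes, all tested, 4 were called toward LLC1 and 9 to MLE12 with 1 not called. The shares of all tested genes were 40.7% toward LLC1 and 40.9% toward MLE12. The list's median was -0.82. Irf1, the factor that acts on Cd274, was at 12.6 ± 1.15 CPM in LLC1 against 49.8 ± 2.71 CPM in MLE12 (-1.98 ± 0.07). Irf9 (-1.84 ± 0.07), Stat3 (-1.51 ± 0.05) and the receptor chain Ifngr2 (-1.27 ± 0.05) were higher in MLE12 as well. The feedback inhibitor Socs1 went the other way, at 7.73 ± 1.10 CPM in LLC1 against 0.645 ± 0.128 CPM in MLE12 (3.6 ± 0.16), as did Jak1 (0.69 ± 0.04), Jak2 (0.48 ± 0.06) and Socs3 (0.26 ± 0.05). In LLC1 Jak1 had the most reads per kilobase of the list, and in MLE12 Stat3 and Jak1 had 17.3 RPKM each. Whether any of these genes has a part in the Cd274 difference was not tested.

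Among 16 other genes known to act on Cd274 transcription, 5 were higher in LLC1 and 11 were higher in MLE12, with a median of -0.26. All 16 were called, beside 81.6% of all tested genes. Myc (353 ± 12.2 and 43.6 ± 0.883 CPM, 3.02 ± 0.04) and Hif1a, the hypoxia factor (1.74 ± 0.04), were higher in LLC1, together with Nfkb1 (0.82 ± 0.05) and Jun (0.68 ± 0.05). Fos (-5.69 ± 0.30), the RNA-decay factor Zfp36 (-1.70 ± 0.07), Atf3 (-1.47 ± 0.10) and Ikbkb (-1.18 ± 0.04) were higher in MLE12. Rela had the most reads per kilobase of the list in MLE12 (39.3 RPKM). The part of these regulators in the Cd274 difference was not tested. Genes that act on the PD-L1 or CD47 protein numbered 17, with a median of -0.25. Of these, 5 were called toward LLC1, 10 toward MLE12 and 2 not at all, beside 40.7% and 40.9% of all tested genes. Cmtm6, which keeps PD-L1 at the cell surface, was at 30.9 ± 0.566 CPM in LLC1 against 68.7 ± 1.48 CPM in MLE12 (-1.15 ± 0.04). Hip1r, which sends PD-L1 to lysosomes, was higher in MLE12 too (-2.58 ± 0.08). B3gnt3, a glycosyltransferase that acts on PD-L1, was higher in LLC1 (2.07 ± 0.07), and so by smaller amounts were Stub1 (0.60 ± 0.05), Btrc (0.50 ± 0.06) and Cdk4 (0.36 ± 0.04). Cdk4 and Stub1 had the most reads per kilobase of this list in both lines.

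**Figure D4:**
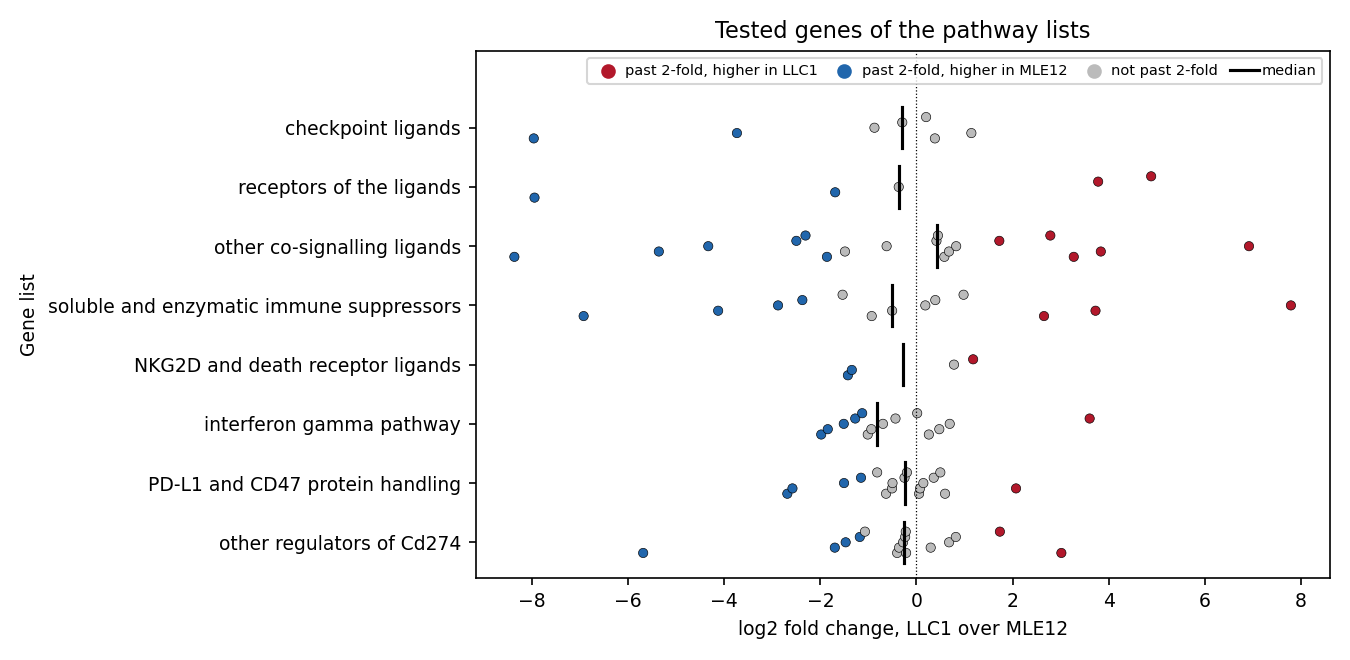
Log2 fold change, LLC1 over MLE12, of each tested gene in the checkpoint ligand list and 7 related lists; each point is a gene, red or blue where it passed the test against 2-fold in favour of LLC1 or MLE12 and grey where it did not, and black bars are list medians. The medians lie between -0.82 for the interferon gamma pathway and 0.43 for other ligands.

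Secreted and enzymatic suppressors of immune cells also differed. Of 19 listed, 13 were tested, and 4 were called toward LLC1 and 7 to MLE12 with 2 not called, with a median of -0.51. Of all tested genes, 40.7% were called toward LLC1 and 40.9% toward MLE12. Ptges and Ptgs2, which encode enzymes of prostaglandin E2 synthesis, were higher in LLC1, with Ptges at 202 ± 3.16 CPM in LLC1 against 0.926 ± 0.157 CPM in MLE12 (7.79 ± 0.07) and Ptgs2 at 71.2 ± 1.31 and 11.3 ± 0.0723 CPM (2.65 ± 0.05). The TGF-beta genes divided. Tgfb2 was at 1.74 ± 0.409 CPM in LLC1 against 211 ± 10.2 CPM in MLE12 (-6.93 ± 0.09), and Tgfb3 was higher in MLE12 (-2.37 ± 0.06), while Tgfb1 was higher in LLC1 (0.39 ± 0.09). Nt5e, the enzyme that makes adenosine (-2.88 ± 0.11), and the macrophage growth factor Csf1 (-0.93 ± 0.04) were higher in MLE12. Vegfa was among the list's most abundant genes in both lines, at 29.3 RPKM in LLC1 and 41.6 RPKM in MLE12.

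Of 11 listed NKG2D and death receptor ligands, 7 were among the counted genes. Raet1a, Raet1b, Raet1c and H60a were not found by symbol. The 4 genes tested were all ligands of the activating receptor NKG2D. Of these, 2 were higher in each line, with a median of -0.28. All 4 were called, beside 81.6% of all tested genes. Raet1e (12.9 ± 1.29 and 5.72 ± 0.460 CPM; 1.18 ± 0.09) and Raet1d (0.78 ± 0.12) were higher in LLC1, and Ulbp1 (5.95 ± 0.976 and 15.1 ± 1.35 CPM; -1.34 ± 0.10) was higher in MLE12. Raet1 genes are close copies of each other, so the split of their reads is uncertain.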

How the data were processed

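The table deposited by the authors gives an unscaled read count for each of 43346 Ensembl genes in 8 libraries. The tools named in the submitters' processing notes are featureCounts, TopHat2, CASAVA and edgeR, and the build is mm10. Their versions, the strand setting and the annotation release are not given in the sources used here. Poly-A RNA, per the labels' protocols, was copied with random primers, amplified by PCR and sequenced in pairs. No strand-marking step is named, so reads of overlapping genes cannot be told apart. More genes had 2 counts than had 1 (1392 and 1130 in the first LLC1 library), so both reads of a pair may have been counted. The length column of the deposited table, a value in bases, holds exons and not coding bases alone. No batch is named in the labels.

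Groups are the cell lines in the labels. No library copied another (chi-square per degree of freedom 6.35 to 53.1 within a line). edgeR 4.0.16 in R 4.3.3 was run with filterByExpr, TMM (factors 0.924 to 1.04) and robust glmQLFit on all 8 libraries. Calls are adjusted p under 0.05 (glmQLFTest) or the same against a fold of 2 (glmTreat). The SE is the log2 fold change divided by the square root of F, and 95% intervals use it. RPKM was computed here from CPM and the deposited length. Limits for a count of 0 take 3 counts over a line's plain totals and cover counting error only, since PCR copies are not separate molecules. They would be too low if both reads of a pair were counted. The fit was tested on simulated data with few changed genes and the same dispersion for all. That setting does not cover lines that differ at most genes, or ligands as low as Cd80. Gene IDs matched GENCODE M21 (mm10) for 98.0%.

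The ligands, lists and tests were chosen with earlier results of these data known. The text names all ligands and receptors, and per list up to 4 called genes per direction that reached 5 CPM in one line and the 2 with most RPKM per line, models that overlap a ligand, the 3 nearest tested genes on either side of Cd274 and Pdcd1lg2, and the 2 genes nearest in log2 RPKM to each ligand that reached 5 CPM. Some genes under this rule, and a further motif searched, are not reported here. Alternatives were DESeq2 1.42.0, limma-voom (limma 3.58.1), other scalings and filters, halved counts, each library left out, the replicate number as a block, and, after seeing the data, overlapping models added and GENCODE lengths.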

Additional observations from a re-analysis of the deposited data

Results flagged for a closer look

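Of 16 sets of 4 libraries with a spread (each ligand in each line), 4 had 1 library far from the other 3 relative to the set's range. Chance marks about 1 in 20 sets of continuous values. Cd274 in LLC1 replicate 2 was low at 1.12 CPM. Lgals9 in LLC1 replicate 4 was low at 8.41 CPM beside 9.07 to 9.13 CPM in the others. Pdcd1lg2 and Cd86 in MLE12 replicate 1 stood at 0.0259 CPM each, which is 2 counts of each gene in that library and none in the other 3. A set with a single library above 0 is always marked, so that rate does not apply to them.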

How the results depend on the processing

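All 7 tested ligands kept their direction under every alternative that could test them (18 each, and 16 for Cd80, which 1 CPM in 4 libraries and halved counts left untested). One call ended: Cd47 with library totals alone (log2 fold change 0.10, adjusted p = 0.112), and over its alternatives the value ran from 0.10 to 0.26. The ranges were -0.97 to -0.76 for Cd274, -0.39 to -0.23 for Cd276, 0.91 to 1.31 for Cd80, 0.29 to 0.44 for Pvr, -3.83 to -3.68 for Lgals9 and -8.15 to -7.83 for Cd24a. Deviations of same-numbered libraries of the lines correlated only weakly (r from -0.06 to 0.11). In each line 2 of 4 libraries correlated best with their own number, and whether this goes beyond chance was not tested. With the replicate number as a block (replicate block), 7380 genes were called higher in LLC1 and 7415 higher in MLE12, beside 7554 and 7578 without it, and the ligands' counts were 3 and 4 as before. Depth left Pdcd1lg2, Cd86 and Vtcn1 untested and limits the precision of Cd80, Cd274 and the LLC1 level of Cd24a.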
